A study of Mus musculus with 12 samples.

Results

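The gene set described here makes, imports the building blocks of, recycles and breaks down glutathione, the main thiol antioxidant of liver cells. It has 10 members out of the 55414 genes of the count table, namely Slc7a11, Slc3a2, Gclc, Gclm, Gss, Gsr, Chac1, Chac2, Ggt1 and Gpx1. They were chosen by name, with earlier results of these data known. All 10 were found, and 9 passed the filter on low counts, all but Ggt1. Bulk RNAseq was made from livers of female C57Bl/6J mice, 8 to 12 weeks old, with 3 mice in each of 4 groups. Mice received 0.9% NaCl or a lethal dose of 300 mg/kg FeSO4 intraperitoneally and, 6 h later, PBS or 10 mg/kg of dexamethasone (DEX, a synthetic glucocorticoid), and the livers were taken 2 h after that. The groups are called NaCl/PBS, NaCl/DEX, FeSO4/PBS and FeSO4/DEX. The acute iron dose models an overload of hours, in a whole organ of mixed cell types.

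Glutathione is built from glutamate, cysteine and glycine. Cysteine can enter cells as its oxidised dimer cystine, through the antiporter system xc-, which is a light chain (Slc7a11) bound to a heavy chain (Slc3a2). The first and rate-limiting step of synthesis is catalysed by glutamate-cysteine ligase, a catalytic subunit (Gclc) helped by a modifier subunit (Gclm), and glutathione synthetase (Gss) adds glycine. Glutathione peroxidases such as Gpx1 spend glutathione to reduce peroxides, and glutathione reductase (Gsr) restores it with NADPH. Inside the cell glutathione is cleaved by Chac1 and Chac2, and outside it by gamma-glutamyl transferases such as Ggt1. Many of these genes are known targets of NRF2, the oxidative stress factor encoded by Nfe2l2, and Slc7a11 and Chac1 also of ATF4, a factor of the integrated stress response.

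Counts per library lay between 16335651 and 23827340. Values below are normalized counts, which are the counts of a library scaled by its TMM factor and size, and LFCs are log2 fold changes from 1 edgeR quasi-likelihood model of all 12 libraries with Benjamini-Hochberg adjusted p-values over 13857 tested genes. A gene was called at an adjusted p of 0.05 or less. FeSO4/PBS mouse 1 stood apart from its group over all genes, with a chi-square per gene of 81.4 and 64.9 against mice 2 and 3, where the other pairs of mice within a group lay between 16.8 and 33.9. Several results are therefore given with and without it, and a result without a second value may still depend on this mouse. The hepatocyte marker list (Alb, Apoa1, Ttr, Serpina1a, Apob and Cps1) summed to 1869910 to 2241185 normalized counts in NaCl/PBS, 2252527 to 2582046 in NaCl/DEX, 2320242 to 2655616 in FeSO4/PBS and 2638009 to 2733573 in FeSO4/DEX. Of these 6 markers 2 were called higher in FeSO4/PBS against NaCl/PBS, 1 in FeSO4/DEX against NaCl/DEX and 1 in NaCl/DEX against NaCl/PBS, and none lower, and their part in the values of the members was not tested. The LFCs assume that most genes did not change. In FeSO4/PBS against NaCl/PBS 27.2% of all tested genes were called higher and 27.3% lower, so this did not hold there as worded. Scaling by library size alone put the median LFC of all tested genes at -0.34 in FeSO4/PBS against NaCl/PBS instead of -0.02, a shift that reaches every gene.

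The stretches of upstream sequence shown next come from GRCm39, the build of the files, and hold letters of a binding motif for NRF2 or ATF4. That of Ggt1, a member that was not tested, also holds such letters and is not shown. The 250 bases upstream of the annotated start of each member (GENCODE canonical transcript) were searched on both strands for the core of the antioxidant response element, TGACNNNGC, which NRF2 binds, and for the C/EBP-ATF response element, TGATGNAA, which ATF4 binds. Each line has 30 bases, 5′ to 3′ on the strand of the gene, with the matching letters in capitals. They are Slc7a11 at chr3:50398101-50398130 on the minus strand, Gclm at chr3:122039061-122039090 on the plus strand and Chac1 at chr2:119181519-119181548 on the plus strand.
Slc7a11: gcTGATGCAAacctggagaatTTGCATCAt
Gclm: cgctcccgggcGCACCGTCAactctcacga
Chac1: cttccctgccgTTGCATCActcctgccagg
Slc7a11 had the ATF4 letters in both orientations, at -65 to -58 on its own strand and at -46 to -39 on the other, where -1 is the base before the start. Chac1 had them once, at -159 to -152 on the other strand, inside an exon of a longer Chac1 transcript. Gclm had the NRF2 core at -54 to -46 on the other strand. Ggt1 also had the NRF2 core, at -30 to -22, and the other 6 members had neither motif in this window, which says only that these letters were not there. Of the upstream regions of 12674 tested protein-coding genes, 10.6% held the NRF2 core and 2.13% the ATF4 letters, against 2 of 10 members for each. A match is a description of the sequence, and binding was not measured.

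FeSO4 without DEX was compared with NaCl/PBS first. Of the 9 members tested, 7 were higher and Chac2 alone was lower, while Gss did not pass the test. Over all tested genes 27.2% were called higher and 27.3% lower in this comparison. The median LFC of the members was 1.42, beside -0.02 for all tested genes. In 6 members every FeSO4/PBS mouse lay above every NaCl/PBS mouse, and in Chac2 every one lay below, where 29% and 31% of all tested genes did so. Since the members were chosen with earlier results known, the values of all genes, here and for the DEX-treated mice, are a description and not a test.

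**Figure D1:**
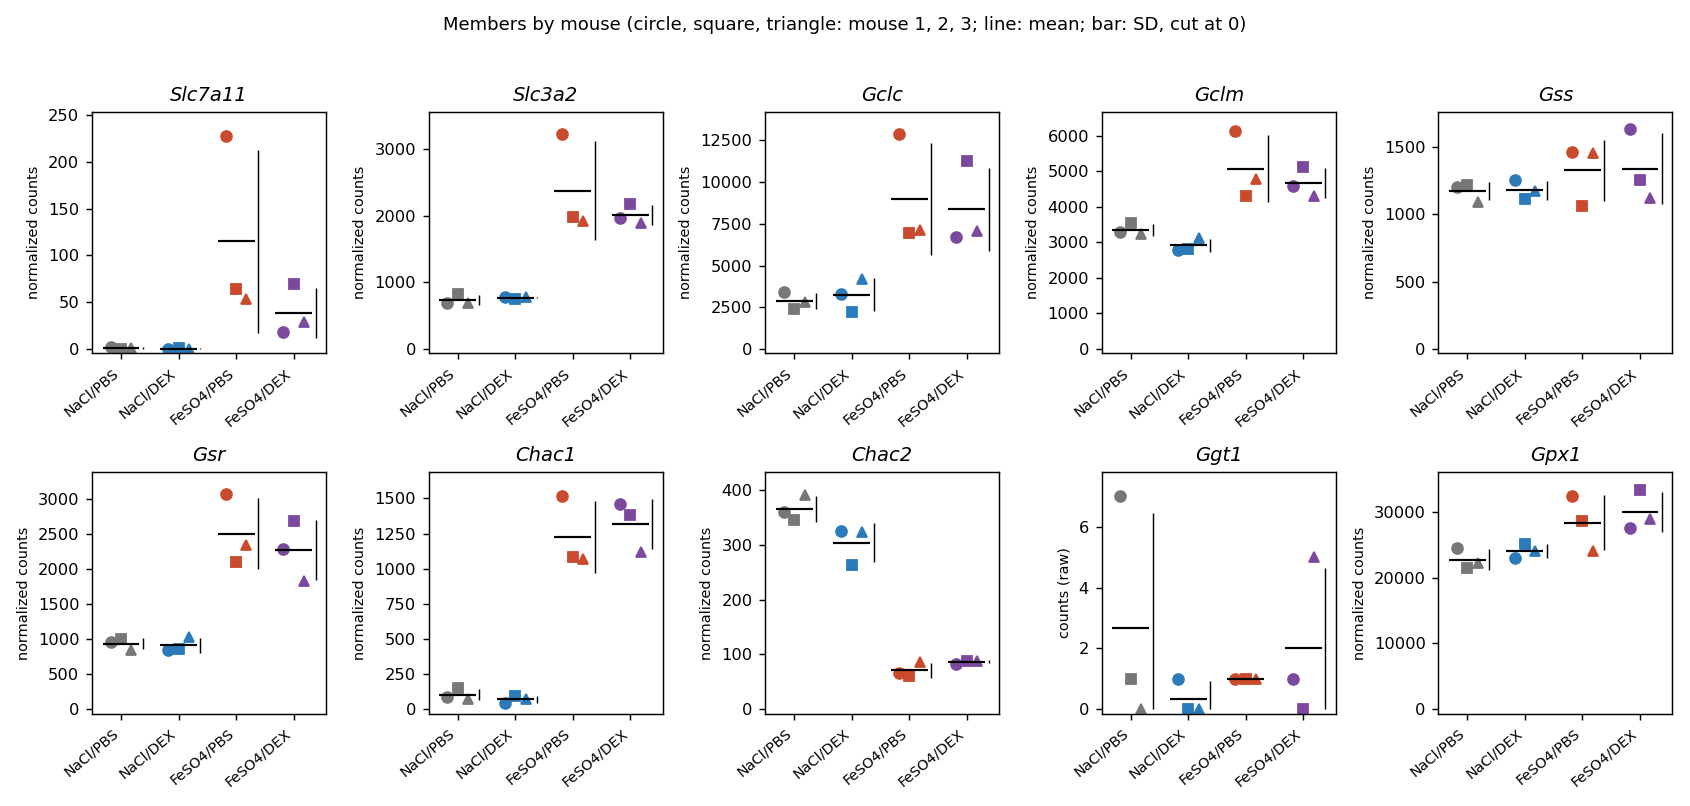
Normalized counts of the 10 members in each of the 12 livers (raw counts for Ggt1), with the vertical axis starting at 0 in each panel. Circles, squares and triangles are mice 1, 2 and 3 of a group, horizontal lines are means and vertical bars the SD (n = 3). Slc7a11, Slc3a2, Gclc, Gsr and Chac1 are high in all 6 FeSO4 mice, and Chac2 is low in all 6.

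Transcripts of both chains of the cystine transporter rose. Slc7a11, on chromosome 3 (49846975 to 50398070, minus strand), had 3, 0 and 1 raw counts in NaCl/PBS against 226, 63 and 42 in FeSO4/PBS. The NaCl livers thus had almost no Slc7a11 transcript, and all 3 FeSO4 livers had it, mouse 1 far above the others. Since the control counts are so low, the change is given as the ratio of the summed counts, corrected for library size and TMM factor, which was 109 with a 95% interval of 42.2 to 403 that covers counting error only. In the edgeR model the adjusted p was 2.8e-05. Without FeSO4/PBS mouse 1 the ratio was 54.1 (20.5 to 202), with an edgeR adjusted p of 3.4e-05. Of the 4 control counts, 3 came from NaCl/PBS mouse 1, and without that mouse the fitted LFC was 7.66 instead of 6.58. The canonical Slc7a11 transcript has 373 bases that are at least 95% identical to alpha-tubulin genes such as Tuba1c, and the part of reads from those genes in the counts of Slc7a11 was not tested.

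Slc3a2, the heavy chain (chromosome 19, 8684245 to 8701108, minus strand), was far more abundant and its transcript was present in every liver. It had 683, 827 and 692 normalized counts in NaCl/PBS and 3228, 1987 and 1914 in FeSO4/PBS. The groups did not overlap, and mouse 1 was again the highest. Slc3a2 rose 3.24-fold, with an LFC of 1.70 ± 0.17 (SE, n = 3 per group) and an edgeR adjusted p of 2.6e-06, and without mouse 1 the LFC was 1.42. Its canonical transcript holds a repeat of 153 to 182 bases that is at least 95% identical to transcripts of 126 other genes. How reads of that stretch were placed was not tested.

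Slc3a2 serves as heavy chain for several light chains. Of 5 others 4 were tested, and 1 rose and 2 fell. Slc7a6, which exchanges arginine and neutral amino acids, had 7.2, 9.4 and 5.9 normalized counts in NaCl/PBS and 401, 245 and 142 in FeSO4/PBS. This was the largest change among them, an LFC of 5.12 ± 0.47 (edgeR adjusted p = 1.1e-06), and 4.69 without FeSO4/PBS mouse 1. Slc7a7, of the same transport system, fell from 74.1, 94.4 and 89.7 to 33.3, 28.5 and 38.3 (LFC -1.37 ± 0.27, edgeR adjusted p = 7.0e-04). Slc7a8, a carrier of neutral amino acids, fell from 145, 173 and 185 to 55.4, 95.6 and 88.0 (LFC -1.07 ± 0.23, edgeR adjusted p = 0.0012). Without FeSO4/PBS mouse 1 the LFC of Slc7a8 was -0.86.

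The synthesis enzymes did not change alike. Gclc, on chromosome 9 (77661797 to 77701770, plus strand), had 3388, 2402 and 2809 normalized counts in NaCl/PBS and 12872, 6945 and 7121 in FeSO4/PBS. All FeSO4/PBS mice lay above the controls, and Gclc rose 3.13-fold, with an LFC of 1.65 ± 0.28 (edgeR adjusted p = 2.4e-04) and of 1.30 without mouse 1. Gclm, on chromosome 3 (122039126 to 122065061, plus strand), had 3283, 3544 and 3230 in NaCl/PBS and 6122, 4307 and 4784 in FeSO4/PBS. The rise of the modifier subunit was smaller, 1.51-fold with an LFC of 0.60 ± 0.13 (edgeR adjusted p = 0.0015), and with scaling by library size alone it did not pass (LFC 0.27, edgeR adjusted p = 0.063). Per kb of canonical transcript, the ratio of Gclc to Gclm within a mouse was 1.25 to 1.90 in NaCl/PBS and 2.74 to 3.87 in FeSO4/PBS, with no overlap. With 3 mice against 3 an exact permutation test of such a ratio cannot go below a p of 0.1.

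Gss, which completes glutathione, showed no detectable change. Its normalized counts were 1206, 1217 and 1094 in NaCl/PBS and 1464, 1065 and 1453 in FeSO4/PBS, and the groups overlapped. The LFC was 0.18 with a 95% interval of -0.14 to 0.50 (edgeR adjusted p = 0.33), so that a rise of the size seen in Gclc lies outside the interval. Gss lies on chromosome 2 (155405096 to 155455505, minus strand) and shares 1511 exon bases with Acss2 on the opposite strand, which had 62927 counts in all against 14983 for Gss. The libraries were stranded, but which strand column was taken is not given in the sources used here. The same limit holds for Slc3a2, which shares 743 exon bases with Snhg1, and for Gpx1, which shares 1232 with Gm57050, both on the opposite strand, while Gclm shares 492 with the pseudogene Gm6061 on its own strand, which had 80 counts against 47065 for Gclm.

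Recycling and use moved by different amounts. Gsr, on chromosome 8 (34142551 to 34188192, plus strand), had 953, 1004 and 843 normalized counts in NaCl/PBS and 3071, 2095 and 2333 in FeSO4/PBS. Each FeSO4/PBS mouse had at least 2095 and no control above 1004, and the LFC was 1.42 ± 0.17 (2.68-fold, edgeR adjusted p = 8.6e-06). Gpx1, on chromosome 9 (108216102 to 108217546, plus strand), was by far the most abundant member at every condition. Its normalized counts were 24526, 21508 and 22231 in NaCl/PBS and 32496, 28661 and 24028 in FeSO4/PBS, and the groups overlapped. The LFC of 0.32 ± 0.13 passed the test narrowly (edgeR adjusted p = 0.0498), the call was lost in 15 of 19 alternative settings, and with library size alone the LFC was -0.0037.

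The enzymes that break glutathione down inside the cell moved in opposite directions. Chac1, on chromosome 2 (119180757 to 119184866, plus strand), had 87.8, 148 and 73.6 normalized counts in NaCl/PBS and 1518, 1084 and 1067 in FeSO4/PBS. The lowest FeSO4/PBS mouse was far above the highest control. Chac1 rose 11.9-fold (LFC 3.58 ± 0.26, edgeR adjusted p = 1.5e-07). Chac2, on chromosome 11 (30926553 to 30936372, minus strand), is its paralogue and is regarded as the constitutive form. It had 360.4, 345 and 392 normalized counts in NaCl/PBS and 65.5, 61.0 and 86.7 in FeSO4/PBS, and was thus low in all 3 iron-treated livers. Chac2 was 5.17-fold lower (LFC -2.37 ± 0.16, edgeR adjusted p = 7.4e-08), and its LFC without mouse 1 was -2.31.

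The order of the paralogues within a liver differed between the groups. Per kb of canonical transcript the ratio of Chac1 to Chac2 was 0.218, 0.384 and 0.169 in the NaCl/PBS mice, so that Chac2 was the more abundant. In FeSO4/PBS it was 20.8, 15.9 and 11.04. The ratio does not depend on library size or scaling, since both genes come from the same library. In the DEX-treated mice it was 0.124 to 0.308 after NaCl and 11.4 to 15.7 after FeSO4.

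**Figure D2:**
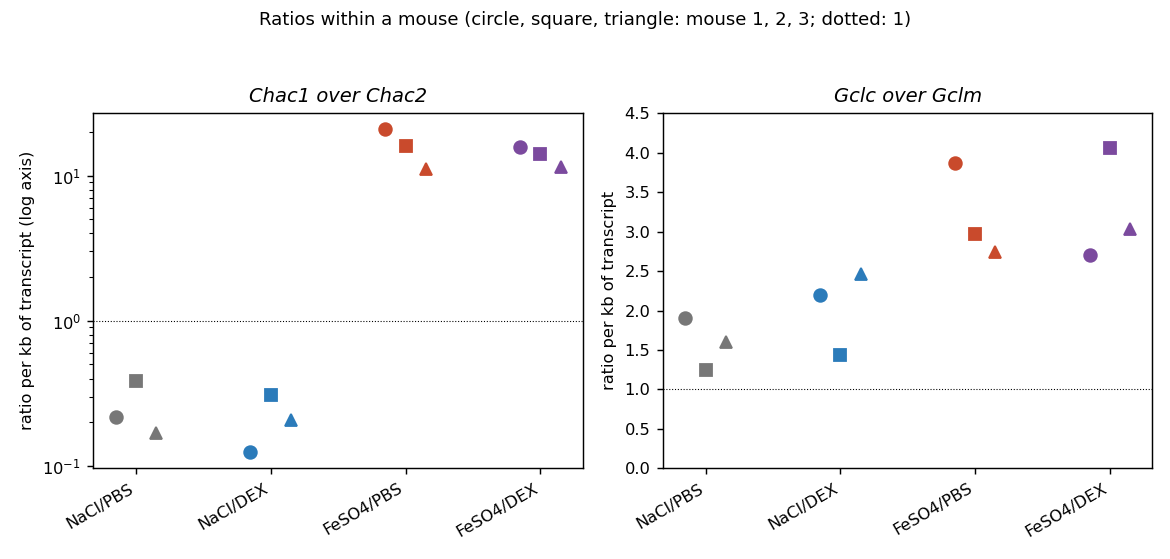
Ratio of Chac1 to Chac2 (left, log axis) and of Gclc to Gclm (right, axis from 0), each per kb of canonical transcript, in each of the 12 livers. Symbols are mice 1, 2 and 3 of each group and the dotted line marks a ratio of 1. Chac1 to Chac2 lies between 0.124 and 0.384 in all 6 NaCl mice and between 11.04 and 20.8 in all 6 FeSO4 mice.

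Ggt1, the extracellular transferase (chromosome 10, 75387268 to 75422248, plus strand), was hardly detected. It had 7, 1 and 0 raw counts in NaCl/PBS, 1, 0 and 0 in NaCl/DEX, 1, 1 and 1 in FeSO4/PBS and 1, 0 and 5 in FeSO4/DEX. These are 18 counts in all 12 livers, and no difference could be tested at this depth. Per kb of canonical transcript, the mean levels in NaCl/PBS ran from Gpx1 (21227 normalized counts per kb) over Gclc (832), Gss (596), Gclm (528), Gsr (349), Slc3a2 (287), Chac2 (245) and Chac1 (62.0) to Ggt1 (0.845) and Slc7a11 (0.109). In FeSO4/PBS Gclc stood at 2606, Gsr at 935, Slc3a2 at 930, Gclm at 799, Chac1 at 736, Gss at 674, Chac2 at 47.7 and Slc7a11 at 12.5, with Chac1 above Gss and Chac2 below all others but Slc7a11 and Ggt1. The order depends on the length chosen. Per kb of all annotated exons, the means in NaCl/PBS were 457 for Gclc, 421 for Gclm, 170 for Gss, 160 for Chac2, 157 for Slc3a2, 135 for Gsr and 39.7 for Chac1.

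FeSO4/PBS mouse 1 had the highest value of its group in 8 of the 10 members, all but Chac2 and Ggt1. Against the mean of the other mice, its level was 3.87 times as high for Slc7a11, 1.83 for Gclc, 1.66 for Slc3a2, 1.41 for Chac1, 1.39 for Gsr and 1.35 for Gclm. Without this mouse 6 members remained called higher and 1 lower, and the call lost was that of Gpx1 (LFC 0.22). What set this mouse apart was not tested.

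The same contrast was then taken in the mice that had received DEX. FeSO4/DEX and NaCl/DEX share no mouse with the groups compared so far. Of the 9 members tested, 6 were called higher and 1 lower, with 22.4% and 20.9% of all tested genes called in these directions. In 7 members every FeSO4/DEX mouse lay above every NaCl/DEX mouse and in 1 below, beside 28.8% and 27.1% of all tested genes. The median LFC of the members was 1.32, against 0.01 over all tested genes.

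Slc7a11 had 0, 1 and 0 raw counts in NaCl/DEX and 19, 51 and 24 in FeSO4/DEX, again with almost none in the NaCl livers. The ratio of summed counts was 108, with a counting interval of 18.8 to 4294 that a single control count leaves wide (edgeR adjusted p = 5.8e-04), and without the one mouse that had this count, NaCl/DEX mouse 2, the fitted LFC was 8.24 instead of 6.37. Slc3a2 had 774, 757 and 777 normalized counts in NaCl/DEX and 1966, 2182 and 1894 in FeSO4/DEX, with little spread in either group, and rose 2.62-fold (LFC 1.39 ± 0.17, edgeR adjusted p = 2.3e-05).

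Gclc had 3320, 2211 and 4183 normalized counts in NaCl/DEX and 6741, 11258 and 7088 in FeSO4/DEX, and rose 2.58-fold (LFC 1.37 ± 0.28, edgeR adjusted p = 0.0013). Gclm had 2782, 2826 and 3135 in NaCl/DEX and 4589, 5114 and 4297 in FeSO4/DEX, and rose 1.60-fold (LFC 0.68 ± 0.13, edgeR adjusted p = 8.3e-04). The ratio of Gclc to Gclm per kb was 1.44 to 2.46 in NaCl/DEX and 2.71 to 4.06 in FeSO4/DEX. Gss had 1255, 1113 and 1171 in NaCl/DEX and 1633, 1256 and 1125 in FeSO4/DEX, with overlapping groups (LFC 0.18, interval -0.14 to 0.50, edgeR adjusted p = 0.34).

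Gsr had 843, 854 and 1032 normalized counts in NaCl/DEX and 2288, 2685 and 1832 in FeSO4/DEX (LFC 1.32 ± 0.17, edgeR adjusted p = 2.6e-05). Chac1 had 45.1, 90.3 and 74.5 in NaCl/DEX and 1459, 1382 and 1121 in FeSO4/DEX, which is 18.7-fold (LFC 4.23 ± 0.28, edgeR adjusted p = 1.0e-07). Chac2 fell from 325, 263 and 324 to 83.1, 88.4 and 88.0, with a narrow spread among the iron-treated mice (LFC -1.81 ± 0.16, edgeR adjusted p = 9.8e-07). The opposite movement of the paralogues was thus present with and without DEX. Gpx1 had 22949, 25194 and 24090 in NaCl/DEX and 27579, 33400 and 28924 in FeSO4/DEX, and although the groups did not overlap the LFC of 0.32 did not pass (edgeR adjusted p = 0.063).

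**Figure D3:**
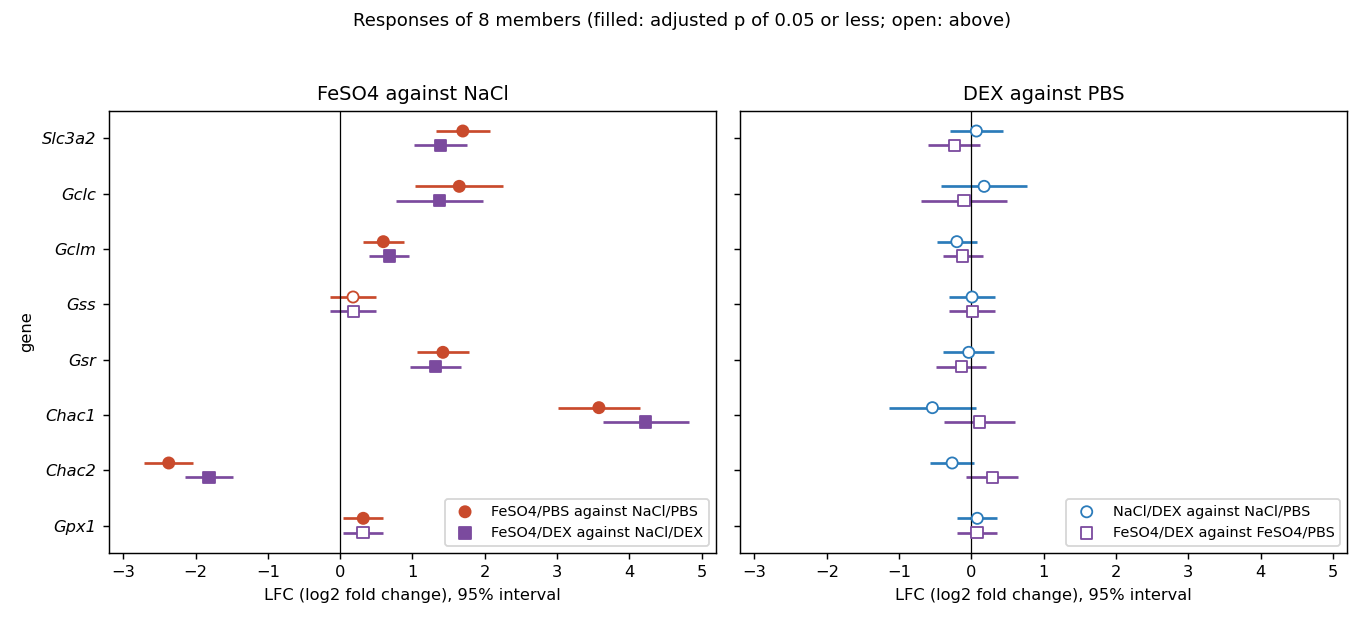
LFC with 95% interval for the 8 members tested other than Slc7a11, whose control counts are too low for a fitted interval. The left panel has FeSO4 against NaCl in mice given PBS (circles) and DEX (squares), the right panel DEX against PBS in mice given NaCl (circles) and FeSO4 (squares), and filled symbols passed an adjusted p of 0.05. Chac1 lies at 3.58 and 4.23 and Chac2 at -2.37 and -1.81 on the left, and no symbol on the right is filled.

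DEX itself was compared with PBS next, first in mice without iron. Between NaCl/DEX and NaCl/PBS no member was called by edgeR (0 of 9), and none had an unadjusted p under 0.05, while 13.7% of all tested genes were called in either direction. The NaCl/PBS mice are also the controls of the first comparison. The largest shifts were those of Chac1 (LFC -0.54, interval -1.14 to 0.06, edgeR adjusted p = 0.24), Chac2 (LFC -0.27, interval -0.57 to 0.04, edgeR adjusted p = 0.26) and Gclm (LFC -0.20, interval -0.48 to 0.08, edgeR adjusted p = 0.36). In 2 of the 9 members, Chac2 and Gclm, all 3 NaCl/DEX mice lay below all 3 NaCl/PBS mice. The share of all tested genes that did so was not counted here, so nothing is read from it. For Slc3a2, Gclc, Gss, Gsr and Gpx1 the LFC lay between -0.04 and 0.18. Slc7a11 had 4 counts against 1 and gives no fold at this depth.

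In the iron-treated mice no member was called for FeSO4/DEX against FeSO4/PBS (0 of 9), and 0% of all 13857 tested genes were, although 900 had an unadjusted p under 0.05 and DESeq2 called 9. The FeSO4/PBS mice are those of the first comparison. Slc7a11 was the one member with an unadjusted p under 0.05. Its normalized counts were 228, 64.1 and 53.6 in FeSO4/PBS and 18.4, 69.3 and 28.5 in FeSO4/DEX, so the groups overlapped. The ratio of summed counts was 0.300 (0.236 to 0.378, counting error only) with a fitted LFC of -1.61 (edgeR adjusted p = 0.71), and without FeSO4/PBS mouse 1 the ratio was 0.606 (0.454 to 0.808) and the LFC -0.66. Without edgeR's filter on low counts the call was made (edgeR adjusted p = 6.7e-04), as 1 of 170 called over all genes in that setting.

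For the other members the iron-treated mice with and without DEX differed by an LFC of -0.24 (Slc3a2, interval -0.60 to 0.12) to 0.29 (Chac2, interval -0.07 to 0.65). Gclc had an interval of -0.69 to 0.49, Gsr of -0.49 to 0.21 and Chac1 of -0.38 to 0.60. Without FeSO4/PBS mouse 1 the LFC was 0.02 for Slc3a2 instead of -0.24 and 0.23 for Gclc instead of -0.10. A change of the size that FeSO4 brought to Slc3a2, Gsr, Chac1 or Chac2 lies outside these intervals.

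The difference between both DEX responses was tested as an interaction, and no member was called by edgeR (0 of 9), against 6.19% of all tested genes. Chac2 came nearest, with an interaction LFC of 0.56 (interval 0.08 to 1.03, unadjusted p = 0.024, edgeR adjusted p = 0.17), and it was the one member with an unadjusted p under 0.05. Chac1 had an interaction LFC of 0.65 (interval -0.13 to 1.43, edgeR adjusted p = 0.34). The intervals of Chac1 and Gclc (-1.11 to 0.56) are wide. A difference of size 1 on the log2 scale lies within them and within that of Chac2. For Slc7a11, with 4 and 1 control counts, the fitted interval ran from -13.0 to 12.6. Nothing can be read from the interaction of Slc7a11 at this depth.

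Other genes of the pathway were taken from 7 lists with 50 genes, 46 of them tested. In FeSO4/PBS against NaCl/PBS 15 were called higher and 5 lower, beside 27.2% and 27.3% of all tested genes, and their median LFC was 0.23 against -0.02 over all tested genes. In FeSO4/DEX against NaCl/DEX 15 were called higher and 5 lower, beside 22.4% and 20.9%, and these were not all the same genes. DEX alone gave 2 higher and 2 lower, beside 13.7% in either direction, and after FeSO4 none was called (0% of all tested genes). The same shares stand beside the counts of each single list, and nothing is read from the count of a list.

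Among 8 tested genes of the gamma-glutamyl cycle 1 rose and 1 fell. Ggt7, a relative of Ggt1, had 2.9, 3.7 and 5.1 normalized counts in NaCl/PBS and 15.1, 12.2 and 7.7 in FeSO4/PBS (LFC 1.58, edgeR adjusted p = 0.015), a low level at which the call was lost without NaCl/PBS mouse 1 (LFC 1.39) or FeSO4/PBS mouse 1 (LFC 1.35). Anpep, an aminopeptidase that cleaves cysteinylglycine, fell from 2603, 2662 and 2114 to 1358, 1783 and 1470 (LFC -0.68, edgeR adjusted p = 4.4e-04). Its fall was not called in the DEX-treated mice (LFC -0.18, edgeR adjusted p = 0.27). Of 4 transporters of glutathione and its conjugates, Slc25a40, which brings glutathione into mitochondria, was lower (74.8, 68.3 and 73.6 against 48.4, 31.5 and 47.2, LFC -0.77, edgeR adjusted p = 0.011), a call that was lost without FeSO4/PBS mouse 2 (LFC -0.59). Slc25a39, its far more abundant relative on this list, was not called (5788, 6567 and 5506 against 8047, 6582 and 6368).

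Of 11 tested genes of glutathione use and reduction 4 rose and none fell. Gpx3, the secreted peroxidase, had 44.6, 64.5 and 42.3 normalized counts in NaCl/PBS and 223, 166 and 205 in FeSO4/PBS (LFC 1.98 ± 0.20, edgeR adjusted p = 2.4e-06). Glrx5, a mitochondrial glutaredoxin of iron-sulfur cluster assembly, had 827, 965 and 761 against 2394, 2217 and 2052 (LFC 1.38 ± 0.14, edgeR adjusted p = 2.05e-06). In both genes each iron-treated mouse was above each control.

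Cysteine can also be made from methionine or spent on other products, and of 6 tested genes of this list 3 rose and none fell. Cdo1, which oxidises cysteine, had 26503, 24656 and 25985 normalized counts in NaCl/PBS and 41233, 43797 and 41647 in FeSO4/PBS (LFC 0.72 ± 0.12, edgeR adjusted p = 1.5e-04). Its rise was not called in the DEX-treated mice (LFC 0.27, edgeR adjusted p = 0.075). After DEX alone Cdo1 was higher (LFC 0.48, edgeR adjusted p = 0.013). Cbs, the first enzyme of transsulfuration, had 8196, 5820 and 9680 against 11228, 11876 and 10052 (LFC 0.48 ± 0.15, edgeR adjusted p = 0.015), and its call was lost without NaCl/PBS mouse 2 (LFC 0.31), with library size alone (LFC 0.16) and when both groups were fitted alone (LFC 0.49).

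NADPH drives Gsr, and of 6 tested genes listed for its supply, not all of which make it, 3 rose and 1 fell. Pgd, of the pentose phosphate pathway, had 718, 711 and 692 normalized counts in NaCl/PBS and 4051, 1307 and 1437 in FeSO4/PBS (LFC 1.68 ± 0.33, edgeR adjusted p = 6.8e-04), and without mouse 1 the LFC was 0.96. Tkt, of the same pathway but not itself a source of NADPH, had 2333, 1859 and 1850 against 3896, 3097 and 3080 (LFC 0.74 ± 0.14, edgeR adjusted p = 5.4e-04). Without mouse 1 the LFC of Tkt was 0.62. G6pdx, also of this pathway, had 98.5, 126 and 115 against 339, 122 and 110, above all controls in mouse 1 alone. Idh1, a cytosolic NADPH source, fell from 8879, 8397 and 8591 to 7205, 6991 and 6107 (LFC -0.35 ± 0.12, edgeR adjusted p = 0.022), and that call was lost without NaCl/PBS mouse 1 or 3 or FeSO4/PBS mouse 3 (LFC -0.33, -0.35 and -0.28).

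**Figure D4:**
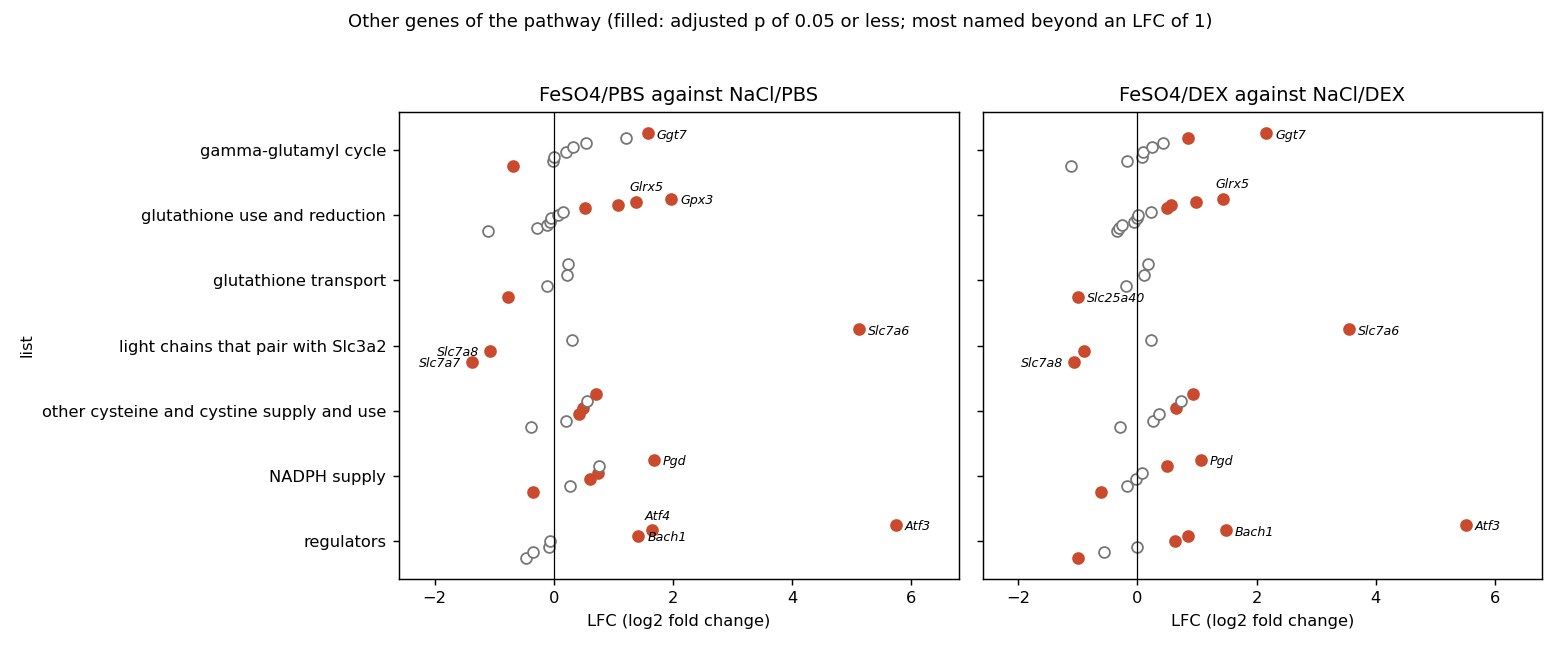
LFC of the 46 tested genes of the 7 pathway lists for FeSO4 against NaCl, in mice given PBS (left) and DEX (right). Each point is a gene, filled where the adjusted p was 0.05 or less, and most called genes beyond an LFC of 1 are named. Slc7a6 (5.12 on the left) and Atf3 (5.75 on the left) lie farthest from 0.

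Transcripts of the factors that act on these genes were read last, and of 7 such regulators 3 rose and none fell after FeSO4 alone, and in the DEX-treated mice 4 rose and 1 fell. Nfe2l2 (NRF2) had 1244, 1058 and 1227 normalized counts in NaCl/PBS and 1150, 1235 and 967 in FeSO4/PBS (LFC -0.07 ± 0.11, edgeR adjusted p = 0.59). Keap1, which marks NRF2 for degradation, had an LFC of -0.07 ± 0.12 (edgeR adjusted p = 0.65). Both are regulated largely as proteins, which were not measured, and with library size alone both were called lower (LFC -0.40 and -0.39), close to the shift of all genes. Bach1, a repressor at NRF2 sites, had 994, 1237 and 833 against 2860, 2671 and 2655, and rose (LFC 1.42 ± 0.14, edgeR adjusted p = 1.7e-06).

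Atf4 had 1185, 1250 and 1257 normalized counts in NaCl/PBS and 5503, 2684 and 3350 in FeSO4/PBS, with mouse 1 the highest (LFC 1.64 ± 0.20, edgeR adjusted p = 1.5e-05). Without mouse 1 the LFC of Atf4 was 1.30. Atf3, a stress factor downstream of it, had 18.7, 41.1 and 15.2 against 452, 2318 and 1194 (LFC 5.75 ± 0.58, edgeR adjusted p = 2.5e-06). In Atf3, unlike Atf4 and most members, mouse 1 was the lowest of its group. Ddit3, a further stress factor, had 80.6, 57.0 and 77.0 against 80.6, 38.7 and 35.7 and was not called (LFC -0.46 ± 0.32, edgeR adjusted p = 0.23), but was called lower without mouse 1 (LFC -0.94) and with library size alone (LFC -0.79).

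After DEX without iron, Nfe2l2 was lower (714, 680 and 737 in NaCl/DEX, LFC -0.73 ± 0.11, edgeR adjusted p = 5.3e-04), and no member was called there. In the DEX-treated mice Nfe2l2 was higher after FeSO4 (1071, 1132 and 1081, LFC 0.62 ± 0.11, edgeR adjusted p = 4.7e-04). The regulator that fell there was Trib3, a target of ATF4, chosen for mention after its values were seen. It had 253, 274 and 208 normalized counts in NaCl/DEX and 135, 133 and 99.9 in FeSO4/DEX, with no overlap (LFC -0.996 ± 0.25, edgeR adjusted p = 0.0053), and after FeSO4 without DEX its LFC was -0.34 (edgeR adjusted p = 0.26). The members on which NRF2 is best known to act, Gclc, Gclm and Gsr, had LFCs of 0.18, -0.20 and -0.04 after DEX alone.

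Marker genes of other cells moved with FeSO4 as well. The 7 neutrophil markers summed to 50.8 to 190 normalized counts in NaCl/PBS, 54.4 to 79.9 in NaCl/DEX, 692 to 867 in FeSO4/PBS and 521 to 651 in FeSO4/DEX. All 5 tested neutrophil markers were called higher after FeSO4, while Ly6g was at 0 in 6 libraries and Mpo in 9. The 8 Kupffer cell and macrophage markers, all called lower in FeSO4/PBS, summed to 8652 to 9910, 7808 to 9002, 4675 to 5426 and 3995 to 6320 in the same order of groups. The 6 cholangiocyte markers summed to 534 to 686, 445 to 654, 1068 to 1377 and 900 to 1117. Of the 5 tested, 2 were called higher after FeSO4 with PBS and 1 with DEX, with a median LFC of 0.48 and -0.23. Sox9, 1 of them and chosen for mention after its values were seen, ran from 12.1 to 603 over the 12 libraries, and Cftr was at 0 in 2. Spp1 and Sox9 had the highest medians of this list (584 and 148), and no other marker on it had a median above 28.0. The 5 blood markers (hemoglobin genes and Alas2) summed to 1567 to 3727, 2799 to 3667, 2886 to 5559 and 3978 to 8906, with 3 called higher after FeSO4 with PBS and 4 with DEX (median LFC 0.84 and 1.08), and none of them was at 0 in any library. In whole liver, fewer cells of a type and less RNA per cell cannot be told apart, and the part of these cells in the values of Slc7a11 or any other member was not tested.

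Of all tested genes other than Gm and Rik genes, those whose level followed a member most closely over the 12 libraries were found by Pearson correlation of log2 CPM. For Slc7a11 they were Pelp1 (r = 0.985), Rnf4 (0.984) and Ppp2r3d (0.982). For Gclm they were Prkab1 (0.982), Zc3h13 (0.977) and Cdh3 (0.972), and for Chac1 Arid5a (0.992), Hmox1 (0.991) and Csrp1 (0.991), of which Hmox1 encodes the heme oxygenase that releases iron from heme. For Gpx1 they were Rpl36a (0.961), Ndufs6 (0.960) and Brk1 (0.960). These points come from 4 groups of 3 libraries that were normalized together, and with 13857 genes to choose from the values are a description only.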

How the data were processed

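Livers of 12 mice (3 separate mice in each of 4 groups) were sequenced. According to the study's methods and the submitters' processing notes, TruSeq stranded mRNA libraries were read single-end for 100 cycles, checked with FastQC, mapped to mm39 with STAR 2.7.10b and counted per gene, and the authors ran DESeq2. The strand column taken is not given in the sources used here. The values the authors deposited are raw counts for 55414 Ensembl genes, whole numbers without normalization, of which 30401 had no count.

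From these, GENCODE vM39 on GRCm39 gave a symbol to 54749 genes, and a symbol with several identifiers stands for the one with the most counts. With R 4.3.3, edgeR 4.0.16 and limma 3.58.1, filterByExpr kept 13857 genes, TMM factors were computed (0.87 to 1.16) and 1 quasi-likelihood model of the 4 groups was fitted (biological coefficient of variation 0.169, prior degrees of freedom 5.93). LFCs used a prior count of 0.125, the SE is the size of the LFC over the square root of F, and normalized counts are TMM-scaled at the mean effective library size. Genes were called where the p adjusted by Benjamini-Hochberg was at most 0.05. The model was tested on simulated data first. Intervals of ratios of summed counts are exact and conditional on the sum, at 95%, and cover counting error only. The depth of 16335651 to 23827340 counts limits genes with few counts, such as Slc7a11, Ggt1, Ggt7 and the pathway genes that were not tested, and for abundant genes the number of mice limits precision.

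Comparisons were FeSO4/PBS against NaCl/PBS, the same between DEX-treated mice, DEX against PBS in NaCl mice and in FeSO4 mice, and the difference of both DEX responses. The members, the pathway lists and the 10 marker lists were chosen with earlier results of these data known. Named beside the members were the 2 largest rises and falls per list in the first comparison, 6 regulators, and the 3 genes most like Slc7a11, Gclm, Chac1 and Gpx1. Trib3, Slc25a39, G6pdx, Sox9, Spp1, Cftr and genes named only as sequence neighbours or overlaps (Tuba1c, Acss2) fall outside this rule. Alternatives were DESeq2 1.42.0, DESeq2 size factors, library size alone, no filter, a minimum of 10 counts per library, a replicate block, fits without the other groups, an LFC beyond 1, and each mouse left out. Upstream sequence was read from the GRCm39 genome and transcripts were compared with BLAST, both with Python 3.11.15, pandas 2.3.3 and numpy 2.4.6, and figures were drawn with matplotlib 3.10.9.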

Additional observations from a re-analysis of the deposited data

Results flagged for a closer look

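In 2 genes of the pathway lists the response to DEX differed between NaCl and FeSO4 mice by the interaction term of the edgeR model. For Nfe2l2 the interaction LFC was 0.70 ± 0.16 (edgeR adjusted p = 0.017), with a response of -0.73 after NaCl and of -0.03 after FeSO4. All 3 NaCl/DEX mice lay below all 3 NaCl/PBS mice. With 1 mouse left out at a time it was 0.59 to 0.77, and the call was lost without NaCl/PBS mouse 1 or 3. For Gpx3 the interaction LFC was -0.99 ± 0.27 (edgeR adjusted p = 0.049), with a response of 0.77 after NaCl and of -0.21 after FeSO4, and the call was lost in 12 of 18 alternatives, among them 10 of the 12 that leave out 1 mouse. No member had an interaction that passed the test.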

How the results depend on the processing

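In both comparisons of FeSO4 with NaCl the members called lower stayed at 1 (Chac2) under every alternative run, and those called higher numbered 5 to 7. At least 10 counts in every library removed Slc7a11 from the test, and the 2 fewer calls with library size alone were Gclm and Gpx1. With library size alone the LFC of Gpx1 in FeSO4/PBS against NaCl/PBS turned to -0.0037, and that of Gss, not called in either, to -0.14. Without a filter on low counts 1 member was called lower after DEX in NaCl mice (Chac1, LFC -0.53, edgeR adjusted p = 0.030) and 1 after DEX in FeSO4 mice (Slc7a11, LFC -1.62, edgeR adjusted p = 6.7e-04), and the cause was not tested. Leaving out each mouse moved the LFC in FeSO4/PBS against NaCl/PBS from 5.61 to 7.66 for Slc7a11, 1.42 to 1.83 for Slc3a2, 1.30 to 1.80 for Gclc, 0.44 to 0.70 for Gclm, 1.25 to 1.54 for Gsr, 3.39 to 3.92 for Chac1, -2.52 to -2.27 for Chac2 and 0.22 to 0.43 for Gpx1. Replicate numbers were not treated as pairs in the main model. Of 18 correlations of same-numbered mice 2 were over 0.1 (-0.09 to 0.13), and those of other numbers ran from -0.15 to 0.11. Between NaCl/PBS and NaCl/DEX the same-numbered mice had 0.13, 0.11 and 0.05, against -0.15 to 0.03 for other numbers. Whether those 2 groups share a factor was not tested. With the replicate block 6 members were higher and 1 lower, the call lost being that of Gpx1 (LFC 0.31, edgeR adjusted p = 0.070). Signs of uncalled DEX effects changed under 1 or more alternatives in 5 of 9 members in NaCl mice and 6 of 9 in FeSO4 mice.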
